A study of Mus musculus with 11 samples.

Results

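Importins, exportins and nucleoporins were followed in NIH-3T3, a fibroblast cell line that was established from mouse embryos, after treatment with the oligonucleotide AS1411. The genes were chosen by name from the raw count table: protein-coding genes whose mouse symbols begin with Kpna, Kpnb, Ipo, Xpo, Tnpo or Nup and a number (or Xpot), with Cse1l, Ran, Rangap1, Ranbp1, Ranbp2, Rcc1 and Tpr. This gave 48 genes of the 15022 in the table. All 48 passed the filter on low counts, and 13040 genes passed it in all. Kpna7, Nup62 and Nup62cl also fit the naming rule and were not analysed here. AS1411 is a guanine-rich DNA aptamer that binds nucleolin, and the control was a cytosine-rich DNA oligonucleotide. Cells had received 10 µM of either oligonucleotide, and their polyadenylated RNA was sequenced after 24 h or 48 h. There were 3 libraries of AS1411 cells and 3 of control oligo cells at 24 h, and 2 of AS1411 cells and 3 of control oligo cells at 48 h. No untreated cells were among them, so every treated group is described relative to cells that carried the control oligo. The labels name 1 cell line and do not say whether replicates were separate cultures. A p-value therefore weighs a difference between groups only against the spread of libraries within groups, and that spread may be technical.

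Traffic between cytoplasm and nucleus passes through nuclear pore complexes, which are built of nucleoporins. Importins carry cargo in and exportins carry it out, and the small GTPase Ran gives the direction: Ran bound to GTP releases import cargo inside the nucleus and holds export cargo to its exportin. Rcc1, on chromatin, loads Ran with GTP, while Rangap1 and Ranbp1, on the cytoplasmic side, help it to hydrolyse the GTP. In dividing cells the same proteins also act in spindle assembly and in rebuilding the nuclear envelope after mitosis.

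The oligonucleotides are printed here because every comparison rests on them. They have the same length of 26 bases and share 9 thymines at the same positions, and capitals mark the 8 doublets, of guanine in AS1411 and of cytosine in the control.
AS1411: GGtGGtGGtGGttgtGGtGGtGGtGG
control oligo: CCtCCtCCtCCttctCCtCCtCCtCC

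The libraries held 13541951 to 18784497 counts, of which the 48 genes took 1.04% to 1.06% in AS1411 cells and 1.11% to 1.14% in control oligo cells at 24 h. At 48 h they took 1.02% to 1.05% in AS1411 cells and 1.09% to 1.17% in control oligo cells. Levels are given as CPM, counts per library size, scaled by TMM to a common total. Control oligo replicate 2 at 48 h stood apart from replicates 1 and 3 and was the highest of its group for 39 of the 48 genes, against 36.7% of all genes tested. At 48 h, AS1411 replicate 2 was above replicate 1 for 38 of the 48, against 51.4% of all genes tested. Fibroblast markers were present at a summed 5958 to 6317 CPM in control oligo cells at 24 h, with 7 of 8 listed genes in the table. All 4 listed epithelial genes were outside the table. Of 6 listed leukocyte genes, Cd68 and Cd14 were in the table, and the others were not analysed here. The summed level of Cd68 and Cd14 was 20.8 to 22.7 CPM in AS1411 cells and 8.63 to 9.14 CPM in control oligo cells at 48 h. The fibroblast markers summed to 3843 to 4271 CPM with AS1411 and 6092 to 7362 CPM with the control oligo at 48 h. The 3 endothelial genes in the table summed to at most 1.60 CPM with AS1411 and 1.51 CPM with the control oligo at 48 h. The 2 genes of neurons and glia in the table, Tubb3 and Gfap, summed to 46.2 to 50.5 CPM and 31.4 to 36.2 CPM. The part of these marker genes in the results below was not tested.

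More of these genes were lower than higher in AS1411 cells at both times. At 24 h, 29 of 48 passed the test, against 29.7% of all genes tested: 27 fell and 2 rose (edgeR's quasi-likelihood test, Benjamini-Hochberg adjusted over 13040 genes, two-sided, threshold 0.05). Of all genes tested, 16.7% fell and 13.1% rose at that time. The median log2 fold change was -0.16 over the 48 genes and 0.01 over all genes tested. At 48 h, 36 of 48 passed the test, against 57.9% of all genes tested: 31 fell and 5 rose, against 28.5% and 29.4% of all genes tested. The median was then -0.22, beside 0.01 over all genes tested. At 24 h, 35 of the 48 genes had every AS1411 library below every control library, a pattern shown by 26.3% of all genes tested. At 48 h this was so for 31 of 48, against 32.9% of all genes tested. Summed over the 48 genes, the level was 10348 to 10522 CPM with AS1411 and 11569 to 11859 CPM with the control oligo at 24 h. At 48 h it was 9332 to 9749 CPM with AS1411 and 11089 to 12265 CPM with the control oligo. In a bulk sample, a change in the mix of cells and a change in RNA per cell cannot be told apart.

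These counts depended on how libraries were scaled. With library size in place of TMM, the median of all genes tested moved to 0.09 at 24 h and 0.16 at 48 h. The median of the 48 genes moved with it, to -0.08 at both times. Its distance from the median of all genes was -0.17 at 24 h and -0.23 at 48 h under either scaling. A change of scaling moves all genes of a comparison by about the same amount, so this distance could hardly differ. The calls were then 12 lower and 3 higher at 24 h, and 22 lower and 11 higher at 48 h. Under library size, 9.21% of all genes tested fell and 22.1% rose at 24 h, and 18.2% fell and 41.6% rose at 48 h. The 9 genes that lost their lower call at 48 h were Ipo4, Ipo13, Kpna4, Nup50, Nup93, Nup133, Nup153, Nup188 and Xpo1. At 24 h the 15 were Ipo4, Ipo8, Ipo11, Kpna1, Kpna2, Kpna6, Kpnb1, Nup50, Nup88, Nup160, Nup205, Rangap1, Tnpo1, Xpo5 and Xpo6. Kpna6, Nup35, Nup85, Nup107, Nup155 and Ranbp2 gained a higher call at 48 h with library size, and Nup188 gained one at 24 h. The 24 h count of lower genes also moved by more than the 48 h one when 1 library was left out. It was 16 without AS1411 replicate 1, and 17, 15 and 16 without control oligo replicates 1, 2 and 3. Over all genes tested the lower calls at 24 h moved too, from 2176 to 1598, 1534, 1524 and 1673 in these fits. The median 24 h log2 fold change of the 48 genes was -0.15, -0.16, -0.15 and -0.13 in them. Of the 27 genes that fell at 24 h, 12 were called in each of the 11 fits that left out 1 library, and of the 31 at 48 h, 28 were.

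**Figure D1:**
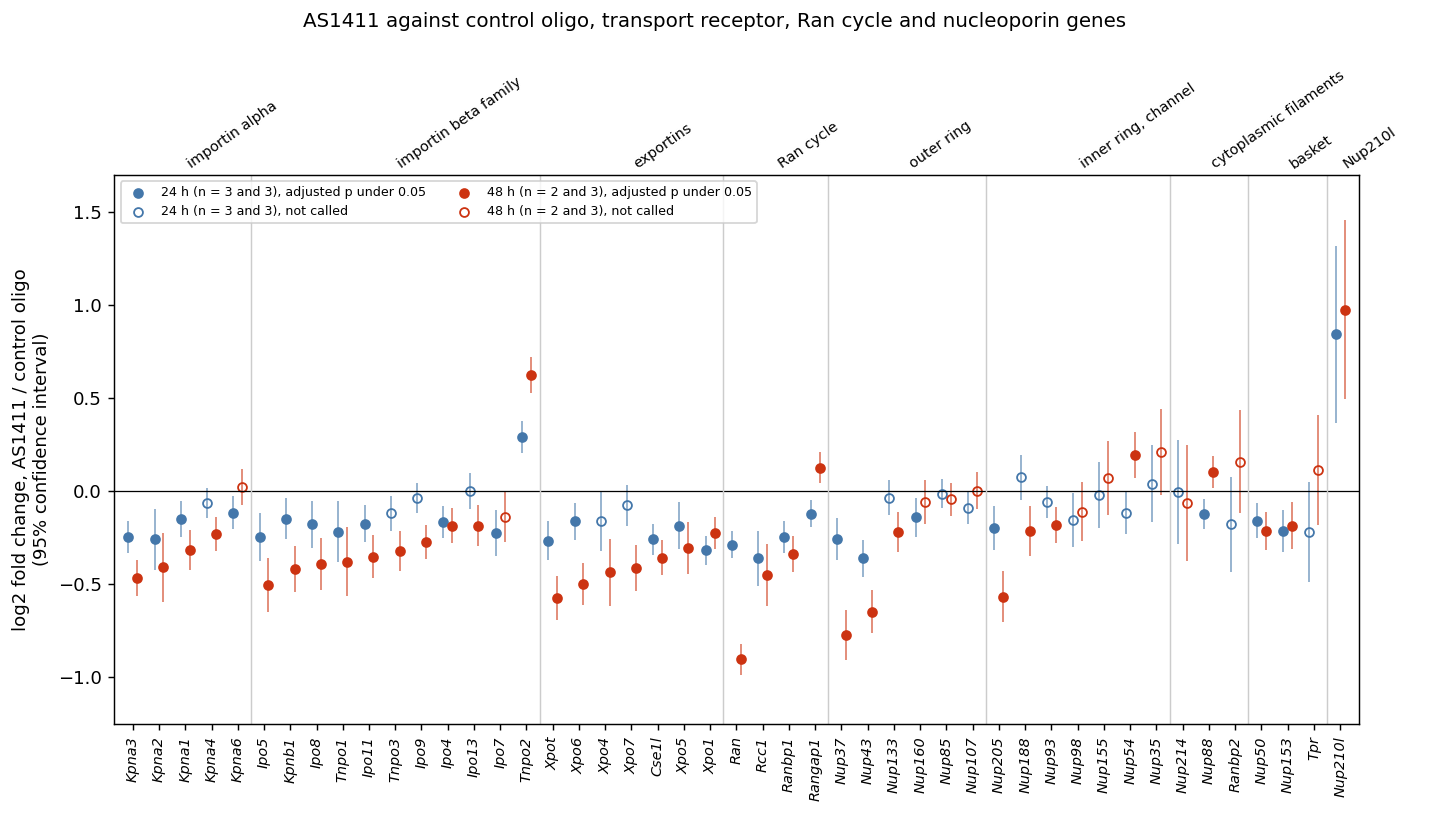
Log2 fold change (AS1411 over control oligo) with its 95% confidence interval for 47 genes, grouped by role, at 24 h and 48 h; filled points passed an adjusted p of 0.05, and Nup210, with 4 to 16 counts per library, is not drawn. At 24 h, 21 of 23 importins and exportins and 18 of 21 nucleoporins have values below 0, and at 48 h these numbers are 21 and 12, with Nup210 counted.

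Of the 23 importins and exportins, 16 fell and 1 rose at 24 h, and 20 fell and 1 rose at 48 h. Of the 21 nucleoporins, 7 fell and 1 rose at 24 h, and 8 fell and 3 rose at 48 h. As shares, 69.6% of the importins and exportins and 33.3% of the nucleoporins fell at 24 h, beside 16.7% of all genes tested. At 48 h the shares were 87.0% and 38.1%, beside 28.5% of all genes tested, so that of the nucleoporins lay nearer to the background. The median log2 fold change at 48 h was -0.35 over the importins and exportins and -0.06 over the nucleoporins. The difference between the groups was not tested. The genes, their roles and the gene lists were chosen with earlier results of these data known. Their shares beside those of all genes are therefore descriptive. Mitotic genes moved as well: of 8 listed, 7 fell at 24 h and 5 at 48 h. Their summed level was 1475 to 1499 CPM with AS1411 and 1954 to 2082 CPM with the control oligo at 24 h, and 1637 to 1741 CPM and 2047 to 2156 CPM at 48 h. The part of the mitotic share in the transport genes' changes was not tested.

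Importin alpha proteins are adaptors: they bind the classical nuclear localisation signal of a cargo and hand it to importin beta. Of the 5 genes, Kpna1, Kpna2, Kpna3 and Kpna6 fell at 24 h, and Kpna1, Kpna2, Kpna3 and Kpna4 fell at 48 h. That was 80% at each time, beside 16.7% of all genes tested at 24 h and 28.5% at 48 h. Kpna3 was measured at 224, 221 and 213 CPM with the control oligo and 180.2, 188 and 186 CPM with AS1411 at 24 h. By 48 h Kpna3 was at 223, 231 and 213 CPM with the control oligo and 159 and 163 CPM with AS1411. All AS1411 libraries lay below all control libraries at both times. The Kpna3 log2 fold change was -0.25 ± 0.04 (adjusted p = 0.000195) at 24 h and -0.47 ± 0.05 (adjusted p = 9.16e-08) at 48 h, where ± gives the standard error. 

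Kpna1 was at 139, 145 and 148 CPM with the control oligo and 125, 133 and 131 CPM with AS1411 at 24 h, and at 140.0, 150.4 and 139.5 CPM and 111 and 119 CPM at 48 h. For Kpna1, every AS1411 library lay below every control library of its time. The Kpna1 log2 fold changes were -0.15 ± 0.05 (adjusted p = 0.0194) and -0.32 ± 0.05 (adjusted p = 3.89e-05) at these times. Kpna4 was at 258, 259 and 254 CPM with the control oligo and 246, 249 and 245 CPM with AS1411 at 24 h, and at 265, 263 and 263 CPM and 215 and 235 CPM at 48 h. For Kpna4, every AS1411 library lay below every control library of its time. For Kpna4 the log2 fold changes were -0.06 ± 0.04 (adjusted p = 0.25) at 24 h, which is no call, and -0.23 ± 0.04 (adjusted p = 0.000176) at 48 h. Kpna6 had -0.11 ± 0.04 (adjusted p = 0.0426) at 24 h and 0.02 ± 0.05 (adjusted p = 0.689) at 48 h. The 48 h value of Kpna6 was 0.17 (adjusted p = 0.00195) when library size replaced TMM. The 24 h call of Kpna1 was lost in 3 of the 11 fits that left out 1 library, with an adjusted p of up to 0.114, and that of Kpna6 in 8, with up to 0.263.

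Kpna2 is the importin alpha known for its high level in proliferating cells. It was measured at 25.7, 26.0 and 24.2 CPM with the control oligo and 20.01, 22.5 and 21.1 CPM with AS1411 at 24 h. At 48 h the values were 23.8, 25.0 and 23.7 CPM and 19.6 and 16.7 CPM. The AS1411 libraries were the lower ones at both times, with log2 fold changes of -0.26 ± 0.08 (adjusted p = 0.0182) and -0.41 ± 0.09 (adjusted p = 0.000657). The 24 h call was lost in 4 of 11 fits without 1 library, with an adjusted p of up to 0.089. The values are uncertain, because 95.8% of its transcript has a copy of at least 95% identity in 5 other annotated genes. Kpna2 held only 256 to 427 counts per library, and its largest copy, Gm10184, held 54 to 93. How reads that match several places were treated is not given in the sources used here.

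Importin beta family proteins bind nucleoporins and Ran directly and carry cargo with or without an adaptor. Of the 11 genes, 7 fell and 1 rose at 24 h (63.6% and 9.1%, beside 16.7% and 13.1% of all genes tested). At 48 h 9 fell and 1 rose (81.8% and 9.1%, beside 28.5% and 29.4%). Kpnb1 encodes importin beta itself, the partner of the importin alphas (ENSMUSG00000001440, GRCm38 chr11:97159714-97187881, minus strand). Its level was 1406, 1432 and 1462 CPM in control oligo cells and 1267, 1311 and 1304 CPM in AS1411 cells at 24 h. By 48 h Kpnb1 was at 1427, 1621 and 1362 CPM and 1058 and 1141 CPM. For Kpnb1, every AS1411 library lay below every control library of its time. The Kpnb1 log2 fold change was -0.15 ± 0.05 (adjusted p = 0.039) at 24 h, a call that was lost in 13 of 20 alternative settings (adjusted p up to 0.163 without 1 library), and -0.42 ± 0.06 (adjusted p = 1.05e-05) at 48 h, a call kept in all of them.

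Ipo5, an importin for ribosomal proteins and histones, had 657, 667 and 689 CPM with the control oligo and 553, 568 and 576 CPM with AS1411 at 24 h. By 48 h Ipo5 had 607, 733 and 603 CPM and 444 and 469 CPM. For Ipo5, every AS1411 library lay below every control library of its time. The Ipo5 log2 fold changes were -0.25 ± 0.06 (adjusted p = 0.00703) and -0.50 ± 0.07 (adjusted p = 1.89e-05). Ipo4, known for the import of histones, was at 316, 310.1 and 327 CPM with the control oligo and 279, 284 and 287 CPM with AS1411 at 24 h, and at 276, 297 and 271 CPM and 247 and 248 CPM at 48 h. For Ipo4, every AS1411 library lay below every control library of its time. It changed by -0.17 ± 0.04 (adjusted p = 0.00457) at 24 h and -0.19 ± 0.05 (adjusted p = 0.00173) at 48 h. Both calls were lost when library size replaced TMM, with -0.09 (adjusted p = 0.0767) and -0.04 (adjusted p = 0.423). A readthrough gene, Gm49378, shares 60.1% of the Ipo4 transcript, so these values are uncertain. 

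Ipo7, another importin of ribosomal proteins and histones, had a log2 fold change of -0.22 ± 0.06 (adjusted p = 0.00871) at 24 h and -0.14 ± 0.07 (adjusted p = 0.0856) at 48 h. The 24 h call was lost without control oligo replicate 2 (adjusted p = 0.0559), and the effects at the times did not differ by the test of their difference (adjusted p = 0.49). Its paralogue Ipo8 changed by -0.18 ± 0.06 (adjusted p = 0.0308) and -0.39 ± 0.07 (adjusted p = 6.49e-05), with the 24 h call lost in 4 of 11 fits without 1 library (adjusted p up to 0.169). Ipo11 is known for carrying a ubiquitin-conjugating enzyme, Ipo9 for carrying actin and histones, and Ipo13 for carrying the SUMO-conjugating enzyme and exon junction proteins. The log2 fold changes at 48 h were -0.35 ± 0.05 (adjusted p = 2.16e-05) for Ipo11, -0.27 ± 0.04 (adjusted p = 2.74e-05) for Ipo9 and -0.19 ± 0.05 (adjusted p = 0.00519) for Ipo13.

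The transportins did not move as 1 group. Tnpo1, which imports hnRNP proteins with a proline-tyrosine signal, had log2 fold changes of -0.22 ± 0.08 (adjusted p = 0.0485) and -0.38 ± 0.08 (adjusted p = 0.0023), with the 24 h call lost in 9 of 11 fits without 1 library (adjusted p up to 0.171). Gm6493 shares 31.3% of the Tnpo1 transcript. Tnpo3, which imports serine/arginine-rich splicing factors, had -0.12 ± 0.05 (adjusted p = 0.0531) at 24 h and -0.32 ± 0.05 (adjusted p = 2.92e-05) at 48 h. Tnpo2, a close paralogue of Tnpo1, was the exception among the receptors (ENSMUSG00000031691, GRCm38 chr8:85036915-85057583, plus strand). It was at 153, 148 and 154 CPM with the control oligo and 189, 186 and 182 CPM with AS1411 at 24 h. By 48 h Tnpo2 was at 149, 153 and 141 CPM and 222 and 233 CPM. Every AS1411 library lay above every control library at both times. The Tnpo2 log2 fold change was 0.29 ± 0.04 (adjusted p = 4.96e-05) at 24 h and 0.62 ± 0.05 (adjusted p = 1.88e-09) at 48 h, and both calls were kept in all 20 alternatives. Other genes overlap 11.7% of the exon bases of Tnpo2: A230103J11Rik on the opposite strand and Gm25506 on the same strand. Transcripts of Tnpo1 were at 314, 397 and 332 CPM with the control oligo and 256 and 279 CPM with AS1411 at 48 h, so the paralogues lay on opposite sides of their controls.

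Exportins bind cargo together with Ran bound to GTP. All 7 genes fell at 48 h, beside 28.5% of all genes tested. At 24 h 5 of them had fallen (71.4%, beside 16.7%). Xpo1 (CRM1), the exporter of proteins with a leucine-rich export signal, was at 427, 438 and 441 CPM with the control oligo and 349, 345 and 354 CPM with AS1411 at 24 h. By 48 h Xpo1 was at 435, 452 and 447 CPM and 369 and 392 CPM. For Xpo1, every AS1411 library lay below every control library of its time. The Xpo1 log2 fold change was -0.32 ± 0.04 (adjusted p = 7.12e-06) and -0.23 ± 0.04 (adjusted p = 0.000121), and the test of the difference between the times made no call (adjusted p = 0.24). Cse1l, which returns importin alpha to the cytoplasm, was at 440.5, 453 and 429 CPM and 365, 378 and 363 CPM at 24 h. By 48 h Cse1l was at 417, 436 and 432 CPM with the control oligo and 322 and 348 CPM with AS1411. For Cse1l, every AS1411 library lay below every control library of its time. The Cse1l log2 fold changes were -0.26 ± 0.04 (adjusted p = 0.000103) and -0.36 ± 0.04 (adjusted p = 1.84e-06).

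Xpot, the exportin of transfer RNA, had the lowest 48 h log2 fold change of the exportins. Its level was 209.7, 212 and 214 CPM with the control oligo and 171, 176 and 181 CPM with AS1411 at 24 h. By 48 h Xpot was at 211, 239.7 and 210.3 CPM and 141 and 155 CPM. For Xpot, every AS1411 library lay below every control library of its time. The Xpot log2 fold change was -0.27 ± 0.05 (adjusted p = 0.000628) at 24 h and -0.58 ± 0.06 (adjusted p = 9.75e-08) at 48 h. Xpot shares 48.1% of its transcript with Gm7389, which held 43 to 81 counts per library against 2372 to 3915 for Xpot. Xpo6, which exports actin bound to profilin, was at 163, 162 and 173 CPM with the control oligo and 150.1, 146 and 149 CPM with AS1411 at 24 h, and at 149.8, 169 and 150.4 CPM and 109.9 and 112 CPM at 48 h. For Xpo6, every AS1411 library lay below every control library of its time. The Xpo6 log2 fold change was -0.16 ± 0.05 (adjusted p = 0.0144) at 24 h, lost without AS1411 replicate 2 or control oligo replicate 3 (adjusted p up to 0.106), and -0.50 ± 0.05 (adjusted p = 3.24e-07) at 48 h. Xpo5, the exporter of microRNA precursors, changed by -0.19 ± 0.06 (adjusted p = 0.0266) and -0.31 ± 0.07 (adjusted p = 0.00101), and its 24 h call was lost in 7 of 11 fits without 1 library (adjusted p up to 0.131). For Xpo4 and Xpo7, broad exportins with several kinds of cargo, the values at 24 h were -0.16 ± 0.08 (adjusted p = 0.127) and -0.08 ± 0.05 (adjusted p = 0.296), which made no call. At 48 h both fell, by log2 fold changes of -0.44 ± 0.08 (adjusted p = 0.000354) and -0.41 ± 0.06 (adjusted p = 9.19e-06).

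Ran had the lowest 48 h log2 fold change of the 48 genes. The gene (ENSMUSG00000029430) lies at GRCm38 chr5:129020069-129024323 on the plus strand. Its level was 779.6, 783 and 767 CPM with the control oligo and 624, 644 and 642 CPM with AS1411 at 24 h. By 48 h Ran was at 724, 738 and 705 CPM with the control oligo and 384 and 389 CPM with AS1411. All AS1411 libraries were lower than all control libraries at both times, and at 48 h the gap was far wider than the spread of either group. The Ran log2 fold change was -0.29 ± 0.03 (adjusted p = 9.5e-06) at 24 h and -0.90 ± 0.04 (adjusted p = 3.56e-12) at 48 h, a level that fell by 46.5% relative to the control oligo. Both calls were kept in all 20 alternatives. Gm13461 shares 26.9% of the Ran transcript and held 34 to 78 counts per library, against 5968 to 12962 for Ran.

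The 3 regulators of Ran differed among themselves. Rcc1, the exchange factor that makes Ran-GTP, was at 133, 137 and 140.0 CPM with the control oligo and 103, 109.6 and 107 CPM with AS1411 at 24 h. By 48 h Rcc1 was at 113, 136 and 108 CPM and 84.2 and 90.1 CPM. For Rcc1, every AS1411 library lay below every control library of its time. The Rcc1 log2 fold change was -0.36 ± 0.07 (adjusted p = 0.00128) at 24 h and -0.45 ± 0.08 (adjusted p = 0.000176) at 48 h. Ranbp1, which helps to strip Ran-GTP from transport receptors, had the highest level per kilobase of exon of all 48 genes, at a mean of 431 CPM per kb over the 11 libraries, followed by Ran at 247 and Kpnb1 at 204. It was at 844, 825 and 814 CPM with the control oligo and 683, 709 and 704 CPM with AS1411 at 24 h, and at 735, 756 and 681 CPM and 555 and 590.5 CPM at 48 h. For Ranbp1, every AS1411 library lay below every control library of its time. The Ranbp1 log2 fold change was -0.24 ± 0.04 (adjusted p = 0.000245) at 24 h and -0.34 ± 0.05 (adjusted p = 5.95e-06) at 48 h, with 26.1% of the transcript shared with Gm49776.

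Rangap1, the activator of Ran's GTPase, changed direction between the times. It was at 367, 384 and 379 CPM with the control oligo and 349, 339 and 351 CPM with AS1411 at 24 h. By 48 h Rangap1 was at 340.1, 342 and 348 CPM and 373 and 377 CPM. For Rangap1, the AS1411 libraries were all below the control libraries at 24 h, and the AS1411 libraries were all above the control libraries at 48 h. The Rangap1 log2 fold change was -0.12 ± 0.04 (adjusted p = 0.0154) at 24 h and 0.13 ± 0.04 (adjusted p = 0.0103) at 48 h. The 24 h call was lost with library size or upper-quartile scaling in place of TMM, with a threshold of 0.01, or without AS1411 replicate 2, control oligo replicate 2 or control oligo replicate 3 (adjusted p up to 0.1). The 48 h call was lost without either AS1411 library (adjusted p up to 0.0826), with a threshold of 0.01, and in the fit on the compared groups alone. The test of the difference between the times gave 0.25 ± 0.05 (adjusted p = 0.00204), a call kept in all 19 alternatives that could give one.

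**Figure D2:**
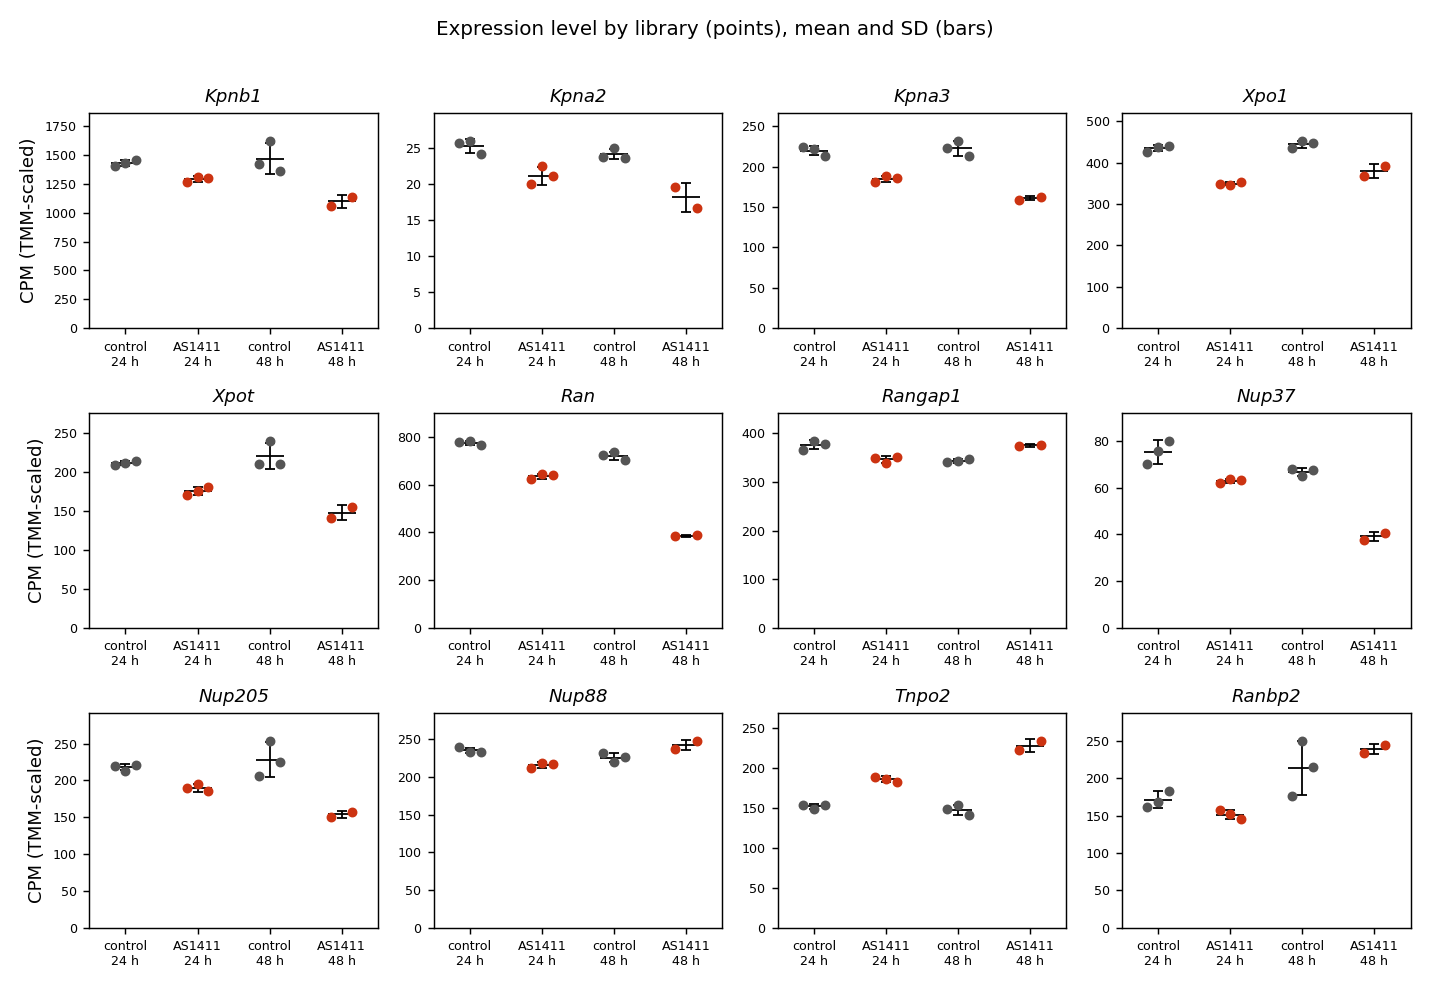
CPM (linear axis from 0) of 12 genes in each of the 11 libraries, with points for libraries and bars for the mean and SD of each group. Ran in AS1411 cells at 48 h sits at 384 and 389 CPM, below every other library, and Tnpo2 in the same cells sits at 222 and 233 CPM, above every other library.

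Outer ring nucleoporins form the scaffold on both faces of the pore and are deposited on chromatin as the envelope reforms after mitosis. Of the 6 genes, 3 fell at each time (50%, beside 16.7% of all genes tested at 24 h and 28.5% at 48 h). Nup37 was at 70.0, 75.8 and 79.8 CPM with the control oligo and 61.9, 63.5 and 63.4 CPM with AS1411 at 24 h (ENSMUSG00000035351, GRCm38 chr10:88146992-88178390, plus strand). By 48 h Nup37 was at 68.0, 64.8 and 67.4 CPM and 37.7 and 40.5 CPM. For Nup37, every AS1411 library lay below every control library of its time. The Nup37 log2 fold change was -0.26 ± 0.05 (adjusted p = 0.00153) at 24 h and -0.77 ± 0.06 (adjusted p = 9.24e-09) at 48 h, and both calls were kept in all 20 alternatives. Nup43, a small scaffold protein of the same ring, was at 83.9, 81.0 and 81.6 CPM with the control oligo and 62.1, 65.2 and 64.6 CPM with AS1411 at 24 h. By 48 h Nup43 was at 72.5, 74.4 and 71.4 CPM and 48.0 and 44.8 CPM. For Nup43, every AS1411 library lay below every control library of its time. The Nup43 log2 fold changes were -0.36 ± 0.05 (adjusted p = 2.02e-05) and -0.65 ± 0.05 (adjusted p = 1.39e-08).

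For the larger scaffold proteins of the ring the values were nearer to 0. Nup133 was at 178, 184 and 183 CPM with the control oligo and 178, 177 and 178 CPM with AS1411 at 24 h, and at 160.0, 178 and 182 CPM and 144 and 153 CPM at 48 h. For Nup133, the groups overlapped at 24 h, and the AS1411 libraries were all below the control libraries at 48 h. The log2 fold changes of Nup133 were -0.03 ± 0.05 (adjusted p = 0.616) at 24 h and -0.22 ± 0.05 (adjusted p = 0.00127) at 48 h. Nup160 had -0.14 ± 0.05 (adjusted p = 0.0402) and -0.06 ± 0.06 (adjusted p = 0.394). The 24 h call of Nup160 was lost in 8 of 11 fits without 1 library (adjusted p up to 0.209), and the effects at the times did not differ by their test (adjusted p = 0.44). Nup107 was not called at either time, with -0.09 ± 0.04 (adjusted p = 0.127) and 0.00 ± 0.05 (adjusted p = 0.985). The 95% interval of Nup107 at 48 h ran from -0.10 to 0.10 with TMM, and its value was 0.15 (adjusted p = 0.00679) when library size replaced TMM. Nup85 was at 267, 277 and 272 CPM with the control oligo and 269.6, 274 and 266 CPM with AS1411 at 24 h, and at 243, 239.7 and 241 CPM and 227 and 241 CPM at 48 h. For Nup85, the groups overlapped at both times. The Nup85 log2 fold change was -0.01 ± 0.04 (adjusted p = 0.812) at 24 h. At 48 h it was -0.04 ± 0.04 (adjusted p = 0.372), and it turned to 0.10 (adjusted p = 0.0379) when library size replaced TMM.

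Inner ring nucleoporins join the scaffold to the membrane and hold the channel proteins whose phenylalanine-glycine repeats form the barrier. Of the 7 genes, 1 fell at 24 h (14.3%, beside 16.7% of all genes tested), and 3 fell and 1 rose at 48 h (42.9% and 14.3%, beside 28.5% and 29.4%). Nup205, a large inner ring scaffold protein, was at 219.8, 213 and 221 CPM with the control oligo and 189, 196 and 186 CPM with AS1411 at 24 h. By 48 h Nup205 was at 206, 253 and 225 CPM and 151 and 158 CPM. For Nup205, every AS1411 library lay below every control library of its time. The Nup205 log2 fold change was -0.20 ± 0.06 (adjusted p = 0.0139) and -0.57 ± 0.06 (adjusted p = 9.85e-07), with the 24 h call lost in 4 of 11 fits without 1 library (adjusted p up to 0.0685). 

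The paralogue of Nup205, Nup188, was at 174, 173 and 195 CPM with the control oligo and 193, 188 and 188 CPM with AS1411 at 24 h, and at 161, 191 and 178 CPM and 155 and 149 CPM at 48 h. For Nup188, the groups overlapped at 24 h, and the AS1411 libraries were all below the control libraries at 48 h. The log2 fold changes of Nup188 were 0.07 ± 0.06 (adjusted p = 0.356) at 24 h and -0.21 ± 0.06 (adjusted p = 0.00796) at 48 h. Nup93, which anchors both paralogues, was at 231, 234 and 243 CPM with the control oligo and 224, 223 and 233 CPM with AS1411 at 24 h, and at 213, 226 and 219 CPM and 186 and 200.5 CPM at 48 h. For Nup93, the groups overlapped at 24 h, and the AS1411 libraries were all below the control libraries at 48 h. The Nup93 log2 fold changes were -0.06 ± 0.04 (adjusted p = 0.316) and -0.18 ± 0.05 (adjusted p = 0.00241). The 48 h call of Nup188 was lost without AS1411 replicate 2 (adjusted p = 0.061) and that of Nup93 without AS1411 replicate 1 (adjusted p = 0.0514).

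Nup54 is a channel protein with such repeats, and it rose at 48 h. It was at 98.1, 96.3 and 92.4 CPM with the control oligo and 87.6, 91.7 and 85.2 CPM with AS1411 at 24 h. By 48 h Nup54 was at 87.8, 95.2 and 82.3 CPM and 97.9 and 105 CPM. For Nup54, the AS1411 libraries were all below the control libraries at 24 h, and the AS1411 libraries were all above the control libraries at 48 h. The Nup54 log2 fold change was -0.12 ± 0.05 (adjusted p = 0.108) at 24 h and 0.19 ± 0.06 (adjusted p = 0.00859) at 48 h, and the 48 h call was lost without AS1411 replicate 2 (adjusted p = 0.14). A further limit is that 53.3% of the Nup54 transcript is shared with Gm15790, which held at most 6 counts per library. Nup155, Nup35 and Nup98 were not called at either time with TMM. When library size replaced TMM, the 48 h values were 0.22 (adjusted p = 0.0381) for Nup155 and 0.35 (adjusted p = 0.0108) for Nup35. The values that follow are those with TMM. At 48 h Nup155 had a log2 fold change of 0.07 ± 0.09 (adjusted p = 0.533), Nup98 one of -0.11 ± 0.08 (adjusted p = 0.218), and Nup35 one of 0.21 ± 0.11 (adjusted p = 0.112), with 99.2% of the Nup35 transcript shared with Gm4353.

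**Figure D3:**
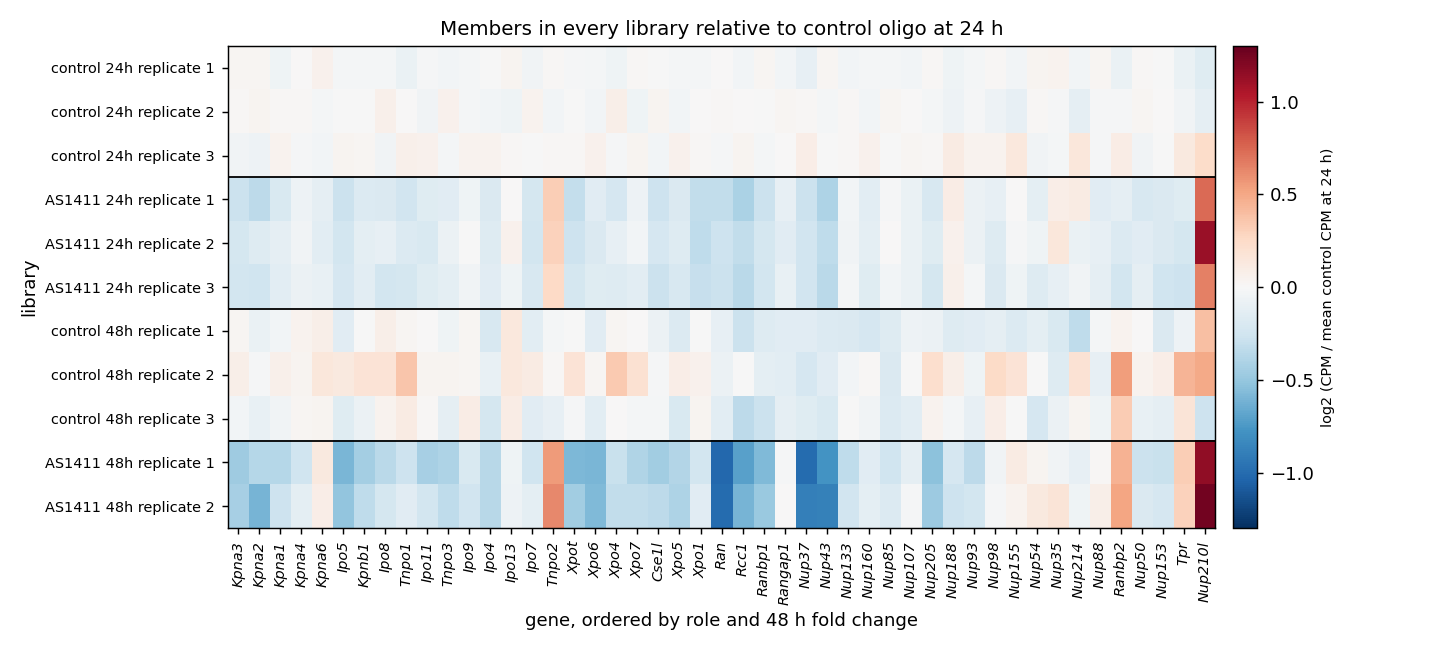
Log2 of the CPM in each library (rows) over the mean control oligo CPM at 24 h (colour, per the scale bar) for the analysed genes (columns), ordered by role and by 48 h fold change. The 2 AS1411 libraries at 48 h are lowest for Ran, Nup37, Nup43 and Xpot and highest for Tnpo2, and control oligo replicate 2 at 48 h differs from its 2 partners across many columns.

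Cytoplasmic filament nucleoporins sit where messenger RNA leaves the pore. Ranbp2, the giant filament protein that binds Ran and acts as a SUMO ligase, was at 161, 168 and 183 CPM with the control oligo and 157, 151 and 145 CPM with AS1411 at 24 h. By 48 h Ranbp2 was at 177, 249 and 215 CPM and 234 and 244 CPM. For Ranbp2, the AS1411 libraries were all below the control libraries at 24 h, and the groups overlapped at 48 h. The Ranbp2 log2 fold change was not called, with -0.18 ± 0.11 (adjusted p = 0.279) at 24 h and 0.16 ± 0.12 (adjusted p = 0.298) at 48 h. Its 48 h value was 0.31 (adjusted p = 0.0416) when library size replaced TMM. Nup214, a repeat protein that binds Xpo1, was at 77.3, 73.3 and 87.7 CPM with the control oligo and 85.4, 74.8 and 77.0 CPM with AS1411 at 24 h, and at 63.1, 90.5 and 81.3 CPM and 73.9 and 76.3 CPM at 48 h. For Nup214, the groups overlapped at both times. The log2 fold changes of Nup214 were 0.00 ± 0.12 (adjusted p = 0.985) and -0.06 ± 0.14 (adjusted p = 0.714). 

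Nup88, the partner of Nup214, was at 239.5, 233 and 234 CPM with the control oligo and 212, 219 and 217 CPM with AS1411 at 24 h, and at 232, 219 and 227 CPM and 238 and 248 CPM at 48 h. For Nup88, the AS1411 libraries were all below the control libraries at 24 h, and the AS1411 libraries were all above the control libraries at 48 h. It fell at 24 h with a log2 fold change of -0.12 ± 0.04 (adjusted p = 0.0188) and rose at 48 h with 0.10 ± 0.04 (adjusted p = 0.0435). The 48 h call of Nup88 was lost in 16 of 20 alternatives, among them DESeq2's Wald test and the fit without AS1411 replicate 2 at 48 h (adjusted p = 0.333). Its 24 h call was lost in 5 of 11 fits without 1 library (adjusted p up to 0.108).

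Basket nucleoporins reach into the nucleus and help to organise chromatin and export at the pore. Nup153, a repeat protein of the basket, was at 209.7, 212 and 210.0 CPM with the control oligo and 184, 185 and 176 CPM with AS1411 at 24 h, and at 185, 223 and 194 CPM and 173 and 181 CPM at 48 h. For Nup153, every AS1411 library lay below every control library of its time. The Nup153 log2 fold change was -0.21 ± 0.05 (adjusted p = 0.00582) at 24 h and -0.19 ± 0.06 (adjusted p = 0.0129) at 48 h, where the call was lost without AS1411 replicate 1 or control oligo replicate 2 (adjusted p up to 0.107). Nup50, which binds Nup153 and helps to free importin alpha from its cargo, was at 236, 238 and 227 CPM with the control oligo and 203, 211 and 215 CPM with AS1411 at 24 h, and at 234, 241 and 218 CPM and 193 and 205 CPM at 48 h. For Nup50, every AS1411 library lay below every control library of its time. The Nup50 log2 fold changes were -0.16 ± 0.04 (adjusted p = 0.0114) and -0.21 ± 0.05 (adjusted p = 0.00116), with the 24 h call lost in 3 of 11 fits without 1 library (adjusted p up to 0.0736). Tpr, the long coiled-coil protein of the basket, was at 248, 255 and 288 CPM with the control oligo and 237, 225 and 218 CPM with AS1411 at 24 h, and at 253, 358 and 295 CPM and 328 and 325 CPM at 48 h. For Tpr, the AS1411 libraries were all below the control libraries at 24 h, and the groups overlapped at 48 h. It was not called at either time, with -0.22 ± 0.12 (adjusted p = 0.204) and 0.11 ± 0.13 (adjusted p = 0.477).

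Nup210 and Nup210l, a membrane nucleoporin with restricted expression and its close relative, were barely expressed. Nup210l rose at both times, with log2 fold changes of 0.84 ± 0.23 (adjusted p = 0.00888) and 0.98 ± 0.23 (adjusted p = 0.00124). The counts behind these values were small, at 24 to 68 per library for Nup210l. It was at 1.56, 1.61 and 2.05 CPM with the control oligo and 2.90, 3.80 and 2.74 CPM with AS1411 at 24 h, and at 2.28, 2.45 and 1.45 CPM and 3.88 and 4.17 CPM at 48 h. For Nup210l, every AS1411 library lay above every control library of its time. Nup210 had 4 to 16 counts per library, and was at 0.962, 0.537 and 0.514 CPM with the control oligo and 0.379, 0.292 and 0.736 CPM with AS1411 at 24 h, and at 0.415, 0.490 and 0.391 CPM and 0.456 and 1.04 CPM at 48 h. For Nup210, the groups overlapped at both times. A difference was not detectable at this depth, with log2 fold changes of -0.47 ± 0.44 (adjusted p = 0.458) and 0.75 ± 0.49 (adjusted p = 0.195).

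The effect of AS1411 differed between the times for 18 of the 48 genes. In a test of the difference itself (the treatment by time interaction in the same edgeR model), 14 genes had a lower and 4 a higher effect at 48 h than at 24 h. Of all genes tested, 14.1% and 13.4% were called in these directions. Among the 14, the effect kept its negative sign and was larger at 48 h for 13, and Nup188 had opposite signs. Ran had the largest such difference, at -0.61 ± 0.05 (adjusted p = 1.27e-07). Nup37 followed with -0.52 ± 0.08 (adjusted p = 0.000153), and Nup205 with -0.37 ± 0.08 (adjusted p = 0.00391). For Kpnb1 the difference was -0.27 ± 0.08 (adjusted p = 0.0152), and it was lost without AS1411 replicate 1 at 48 h (adjusted p = 0.0832). Of the transport receptors called, Ipo5, Ipo9, Kpna3, Kpna4, Tnpo3, Xpo6, Xpo7 and Xpot belonged here too, but the call was lost in 13 of 19 alternatives for Ipo5, in 11 for Kpna4 and in 8 for Tnpo3. Among the 4 with a higher effect at 48 h, Tnpo2 had a larger positive effect, with a difference of 0.33 ± 0.06 (adjusted p = 0.000587), while Nup54, Nup88 and Rangap1 had opposite signs at the 2 times. Without control oligo replicate 2 at 48 h, 8 genes in place of 4 had a higher effect at 48 h. Over all genes tested the number was then 2039 in place of 1749. Of the 18 calls, 9 of the 14 and 2 of the 4 were made in each of the 11 fits that left out 1 library.

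**Figure D4:**
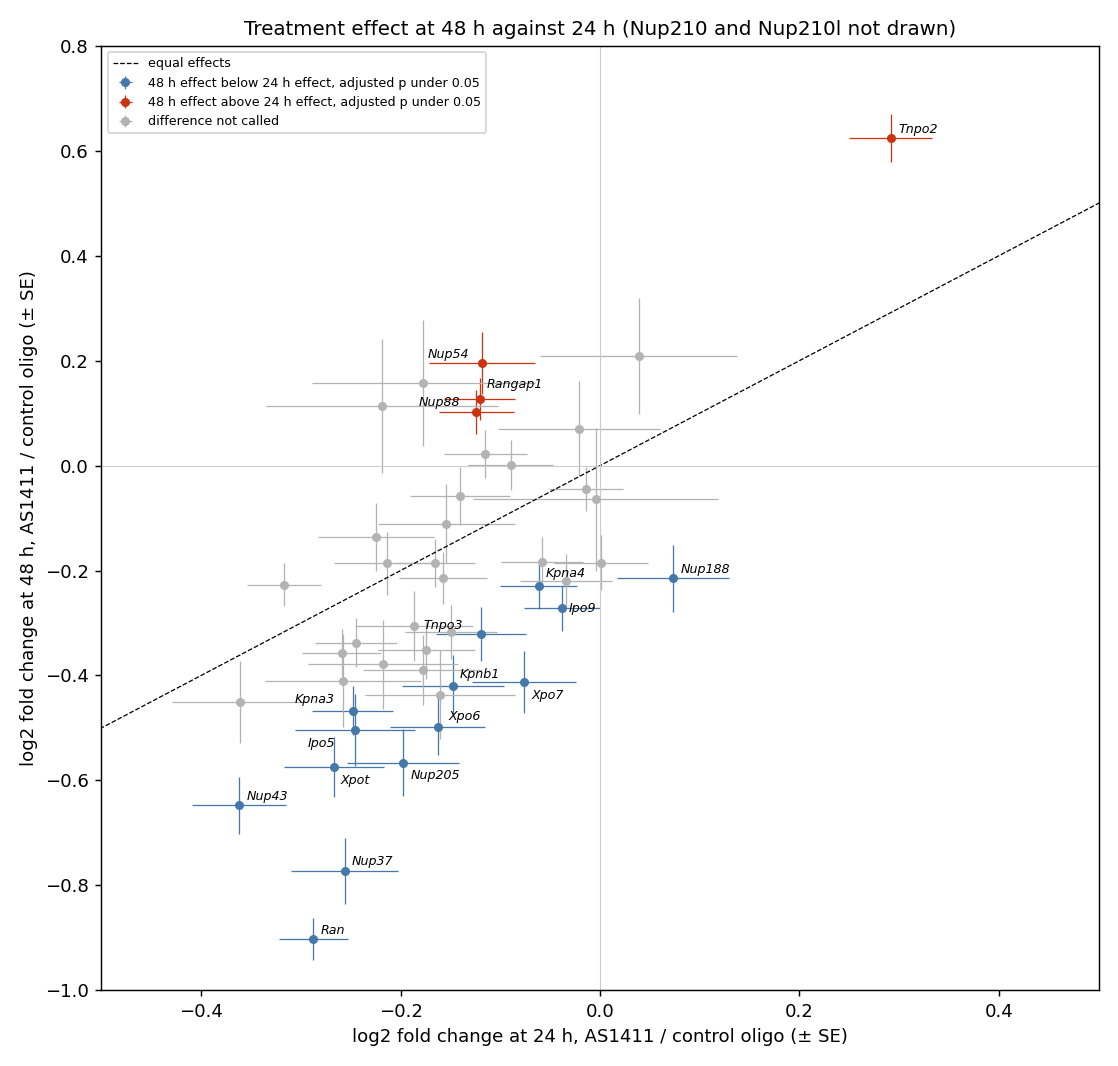
Log2 fold change at 48 h (vertical) against that at 24 h (horizontal), each with its standard error, for 46 genes coloured by the call of the interaction; Nup210 and Nup210l are not drawn. Points below the dashed line of equal effects had a lower effect at 48 h, with Ran at -0.29 ± 0.03 and -0.90 ± 0.04 the farthest below it.

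Changes between 24 h and 48 h were also tested within each treatment. In control oligo cells 16.7% of the 48 genes passed the test, against 24.8% of all genes tested. The median log2 fold change was -0.04 over the 48 genes and -0.004 over all genes. Those called were 8 genes lower at 48 h than at 24 h, against 13.2% of all genes tested. They were Ipo4, Nup37, Nup43, Nup85, Ran, Ranbp1, Rangap1 and Rcc1. The count was 15 without control oligo replicate 2 at 48 h, where that over all genes was 2030 in place of 1723. Ipo4, Nup85 and Ranbp1 were called in each fit that left out 1 library. The number higher was 0 by edgeR, with 3 at an unadjusted p under 0.05 and 1 by DESeq2, and 11.6% of all genes tested were higher. Ranbp1 fell by a log2 fold change of -0.19 ± 0.04 (adjusted p = 0.00213) and Nup85 had -0.18 ± 0.04 (adjusted p = 0.00189). In AS1411 cells, 32 genes differed between the times, against 49.1% of all genes tested. Of these 24 were lower and 8 higher at 48 h, against 24.6% and 24.5% of all genes tested. The 8 were Kpna6, Nup54, Nup88, Ranbp2, Rangap1, Tnpo2, Tpr and Xpo1, and 4 were left without AS1411 replicate 2 at 48 h. Ran changed by -0.10 ± 0.03 (adjusted p = 0.0322) in control oligo cells and -0.72 ± 0.04 (adjusted p = 1.24e-10) in AS1411 cells between the times. The call in control oligo cells was lost in 14 of 20 alternatives, among them 8 of the 11 fits without 1 library (adjusted p up to 0.158). For Ranbp2 the log2 fold changes were 0.33 ± 0.11 (adjusted p = 0.0628) in control oligo cells and 0.66 ± 0.12 (adjusted p = 0.0019) in AS1411 cells. These comparisons share their libraries with those between treatments and are not independent of them.

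Promoter sequences from RefSeq (GRCm38.p6) were found for 38 of the 48 genes, and 4 are printed as examples: Ran, Nup37 and Kpnb1, which fell at both times, and Tnpo2, which rose at both. Each line gives the 250 bases before an annotated start in the gene's own direction, and capitals mark the searched motifs on either strand. Ran lies at chr5:129019906-129020155 (plus strand), Nup37 at chr10:88146742-88146991 (plus strand), Kpnb1 at chr11:97187893-97188142 (minus strand) and Tnpo2 at chr8:85036643-85036892 (plus strand). Nup37 and Tnpo2 have 2 annotated starts each, of which the first is shown, and GENCODE places the start of Ran inside the stretch printed.
Ran: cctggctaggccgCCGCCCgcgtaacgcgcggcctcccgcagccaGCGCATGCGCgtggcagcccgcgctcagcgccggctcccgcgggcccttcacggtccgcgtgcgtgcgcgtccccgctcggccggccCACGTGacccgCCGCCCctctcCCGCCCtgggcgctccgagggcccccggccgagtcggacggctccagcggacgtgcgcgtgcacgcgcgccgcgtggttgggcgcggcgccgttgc
Nup37: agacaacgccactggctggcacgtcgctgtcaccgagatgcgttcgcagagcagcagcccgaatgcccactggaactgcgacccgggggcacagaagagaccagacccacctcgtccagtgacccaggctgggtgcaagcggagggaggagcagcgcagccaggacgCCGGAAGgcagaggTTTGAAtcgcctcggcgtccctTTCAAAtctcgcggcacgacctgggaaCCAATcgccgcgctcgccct
Kpnb1: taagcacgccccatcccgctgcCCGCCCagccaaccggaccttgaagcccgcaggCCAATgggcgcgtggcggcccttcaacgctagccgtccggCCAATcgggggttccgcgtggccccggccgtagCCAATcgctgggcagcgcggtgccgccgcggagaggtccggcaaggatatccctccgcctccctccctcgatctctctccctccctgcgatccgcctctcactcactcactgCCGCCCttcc
Tnpo2: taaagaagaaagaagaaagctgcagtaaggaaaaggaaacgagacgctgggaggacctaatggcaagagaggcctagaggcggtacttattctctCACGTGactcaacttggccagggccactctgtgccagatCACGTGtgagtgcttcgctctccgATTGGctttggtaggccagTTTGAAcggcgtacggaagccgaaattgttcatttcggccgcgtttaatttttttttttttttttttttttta
The marked motifs were the E-box CACGTG, the CCAAT box, the CHR element TTTGAA of cell cycle genes, the palindromic NRF1 site (in the Ran line), the GC box GGGCGG and the ETS site CCGGAAG, none of which is part of another. The windows counted held 300 bases, with 50 bases after the start as well.

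The E-box was in the windows of 9 of the 38 genes (23.7%), among them Ran, Tnpo2 and Xpot, and in 11.8% of 9850 protein-coding genes of the table. Ran, which fell, and Tnpo2, which rose, thus carried the same letters. The CHR element was in 10 of 38 (26.3%), against 13.9% of the table's genes, among them Nup37 and Tnpo2. The CCAAT box was in 19 of 38, against 43.5% of the table's genes, and the GC box in 28 of 38 (73.7%), against 69.6%. The NRF1 site was in 4 of 38 (10.5%), namely Nup107, Nup50, Ran and Xpo5, against 2.3%. The ETS site was in 6 of 38 (15.8%), against 20.2%. Over all 32851 RefSeq promoters the shares were 7.2% for the E-box, 17.9% for CHR, 37.4% for CCAAT, 35.7% for the GC box, 1.0% for NRF1 and 8.9% for ETS. At 48 h, 5 of the 25 genes that fell and had a promoter held an E-box, and 2 of the 4 that rose. A match of letters describes the sequence and is not evidence of binding.

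Genes that work beside these were listed separately, also with earlier results of these data known. Of 10 pore genes outside the naming rule, 2 fell at 24 h, and 4 fell and 3 rose at 48 h, with median log2 fold changes of -0.06 and -0.04, against shares of 16.7% (fell at 24 h), 28.5% (fell at 48 h) and 29.4% (rose at 48 h) over all genes tested. Pom121, which anchors the pore in the membrane, fell at 48 h by a log2 fold change of -0.43 ± 0.07 (adjusted p = 2.43e-05). The scaffold gene Seh1l had -0.26 ± 0.05 (adjusted p = 6.58e-05), and Rae1, an export factor that binds Nup98, had -0.30 ± 0.06 (adjusted p = 0.00014). Of 16 mRNA export genes, 7 fell at 24 h, and 8 fell and 4 rose at 48 h, with medians of -0.08 and -0.11. The share that fell was 43.8% at 24 h, against 16.7% of all genes tested. Thoc6, a subunit of the complex that couples transcription to export, had a log2 fold change of -0.42 ± 0.07 (adjusted p = 3.12e-05) at 48 h. Ddx39, a helicase of the export pathway, had -0.53 ± 0.05 (adjusted p = 2.5e-08) at 48 h, and Ddx19b, a helicase at the cytoplasmic face of the pore, had 0.66 ± 0.08 (adjusted p = 1.1e-06). Of 14 transport adaptors and SUMO genes tested, 4 fell and 1 rose at 24 h, and 3 fell and 4 rose at 48 h, with medians of -0.05 and -0.01. At 48 h 21.4% fell and 28.6% rose, against 28.5% and 29.4% of all genes tested. Ranbp3, a cofactor of Xpo1, had -0.29 ± 0.04 (adjusted p = 1.67e-05) at 48 h. Ncbp1 and Ncbp2, which bind the cap of RNA together, had -0.38 ± 0.05 (adjusted p = 3.39e-06) and 0.20 ± 0.05 (adjusted p = 0.00111) at 48 h, on opposite sides of their controls.

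The nuclear lamina lines the envelope in which the pores sit. Of 13 lamina and envelope genes, 5 fell and 2 rose at 24 h, and 8 fell and 3 rose at 48 h, with median log2 fold changes of -0.10 and -0.20. That is 38.5% and 15.4% of the list at 24 h and 61.5% and 23.1% at 48 h, against 16.7% and 13.1% of all genes tested at 24 h and 28.5% and 29.4% at 48 h. Lmnb1, which encodes lamin B1, fell by a log2 fold change of -0.32 ± 0.04 (adjusted p = 6.56e-06) at 24 h and -0.73 ± 0.04 (adjusted p = 9.52e-11) at 48 h. Tmpo, the lamina-associated polypeptide, had -0.25 ± 0.03 (adjusted p = 2.6e-05) and -0.58 ± 0.04 (adjusted p = 5.73e-10). Banf1, a chromatin protein needed to reform the envelope, had -0.16 ± 0.04 (adjusted p = 0.00312) and -0.72 ± 0.04 (adjusted p = 8.83e-11). The 8 mitotic genes had median log2 fold changes of -0.49 at 24 h and -0.37 at 48 h. Among them Plk1, the polo-like kinase, had -0.64 ± 0.04 (adjusted p = 2.6e-08) at 24 h and -0.80 ± 0.05 (adjusted p = 1.91e-10) at 48 h. Aurka, the spindle pole kinase, had -0.64 ± 0.05 (adjusted p = 7.92e-08) and -0.43 ± 0.05 (adjusted p = 1.53e-06). Cdc20, which switches on the ubiquitin ligase of anaphase, had -0.56 ± 0.05 (adjusted p = 2.09e-07) and -0.49 ± 0.05 (adjusted p = 2.28e-07). Between 24 h and 48 h in AS1411 cells, 6 of the 8 mitotic genes were higher, against 24.5% of all genes tested. Ran and 14 of the 23 importins and exportins were lower over that time, against 24.6% of all genes tested. In the interaction 2 of the 8 mitotic genes were higher, against 13.4% of all genes tested. The part of the mitotic genes in the results on the transport genes was not tested.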

How the data were processed

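Polyadenylated RNA of NIH-3T3 cells was sequenced in 11 libraries. Per the submitters' processing notes, bcl2fastq, cutadapt, STAR, HTSeq and DESeq2 were used on the mouse build GRCm38. Not given in the sources used here are versions, strandedness and how multi-mapping reads were counted, so overlapping and antisense genes cannot be told apart. Of the authors' tables, the deposited raw counts were analysed here and the normalized values were not used here. Symbols and positions came from GENCODE M21 (GRCm38), with 49 of 15022 identifiers unmatched. Libraries were grouped by their titles.

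The members, roles and gene lists were chosen with earlier results of these data known. Genes were filtered with edgeR's filterByExpr, library sizes were scaled by TMM, and a robust quasi-likelihood model was fitted to the 11 libraries with a term for each group (R 4.3.3, edgeR 4.0.16, 7 residual degrees of freedom). The 4 groups thus shared 1 estimate of the spread. Tests were two-sided and adjusted by Benjamini-Hochberg over 13040 genes, with a threshold of 0.05. The standard error is the log2 fold change divided by the square root of F. The fits were tested on simulated counts first. Levels per length divide CPM by the kilobases of merged exons.

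Values in every library are given for Kpnb1, Kpna2, Xpo1, Ran and Cse1l, for up to 3 genes per role with the smallest adjusted p, for up to 3 per direction in the interaction and in control time, and for genes called against the majority of their role. Of the other lists, up to 3 genes are named by their adjusted p at 48 h. Tnpo1 was given in every library after its values were seen, as the paralogue of Tnpo2. Alternatives were DESeq2 1.42.0 (its size factors and its Wald test), library size, upper-quartile scaling, no filter, a CPM of at least 1 in at least 2 libraries, a threshold of 0.01, fits on the compared groups alone, a replicate block and leaving out each library. Copies were searched among GENCODE transcripts at 95% identity.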

Additional observations from a re-analysis of the deposited data

Results flagged for a closer look

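For 18 genes the effect of AS1411 differed between 24 h and 48 h by the test of the difference itself (edgeR's interaction, adjusted over all genes tested). Each value is the log2 fold change at 48 h minus that at 24 h. The nuclear transport GTPase Ran had the lowest, at -0.61 ± 0.05, followed by the pore scaffold genes Nup37 at -0.52 ± 0.08 and Nup205 at -0.37 ± 0.08. Among the exportins, Xpo7 had -0.34 ± 0.08, Xpo6 had -0.34 ± 0.07 and Xpot had -0.31 ± 0.08. Among the importins, Kpnb1 had -0.27 ± 0.08, Ipo5 had -0.26 ± 0.09, Ipo9 had -0.23 ± 0.06, Kpna3 had -0.22 ± 0.06, Tnpo3 had -0.20 ± 0.07 and Kpna4 had -0.17 ± 0.06. The calls of Ipo5, Kpna4 and Tnpo3 were lost in 13, 11 and 8 of 19 alternatives, with an adjusted p of up to 0.164, 0.178 and 0.129 when 1 library was left out. The nucleoporin genes Nup188 and Nup43 had -0.29 ± 0.08 and -0.29 ± 0.07. On the higher side stood Tnpo2 at 0.33 ± 0.06, Nup54 at 0.31 ± 0.08, Rangap1 at 0.25 ± 0.05 and Nup88 at 0.23 ± 0.06. The calls of Nup188, Nup54 and Nup88 were lost when AS1411 replicate 2 at 48 h was left out (adjusted p = 0.0657, 0.063 and 0.0528), and that of Kpnb1 without replicate 1 (adjusted p = 0.0832). No group held 4 or more libraries, so single libraries were not screened as outliers.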

How the results depend on the processing

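Counts of called genes moved by more than 1.5 times as follows. With library size in place of TMM, 12 in place of 27 fell at 24 h, 11 in place of 5 rose at 48 h, and 4 in place of 0 were higher at 48 h than at 24 h in control oligo cells. Nup85 then turned from -0.04 to 0.10 at 48 h (adjusted p = 0.0379). With a threshold of 0.01, 13 fell at 24 h, 3 rose at 48 h, 8 in place of 14 had a lower effect at 48 h than at 24 h, and 4 in place of 8 were lower with time in control oligo cells. Over all genes tested at 0.01, 1403 in place of 2176 fell at 24 h and 2971 in place of 3835 rose at 48 h. The lower effect held for 1040 in place of 1845, and 1033 in place of 1723 were lower with time in control oligo cells. Fitted on the compared groups alone, 2 of the 48 genes rose at 48 h and 4 were lower with time in control oligo cells. Over all genes, 3215 and 1190 did. DESeq2's Wald test called 5 of the 48 lower and 1 higher with time in control oligo cells, and the CPM filter 1 higher. Over all genes these counts were 1388, 1297 and 1661. The interaction needs all groups and has no such fit. The causes were not tested.

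Leaving out 1 library each, 15 to 32 fell and 2 rose at 24 h, and 29 to 34 fell and 2 to 7 rose at 48 h. The effect was lower at 48 h for 10 to 16 genes and higher for 2 to 8. With time, 4 to 15 were lower and 0 to 4 higher in control oligo cells, and 18 to 26 lower and 4 to 8 higher in AS1411 cells. Over all genes tested the calls moved too. Without control oligo replicate 2 at 24 h, 1524 genes fell at 24 h and 1125 were lower with time in control oligo cells. Without control oligo replicate 2 at 48 h these counts were 2544 and 2030, beside 2176 and 1723 with all libraries. With 1 library left of AS1411 at 48 h, that library was assumed to vary like the other groups.

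The labels state no pairing by replicate number, and the correlations of the libraries' deviations from group means did not settle it. Libraries with the same number correlated at -0.06 to 0.27, and those with different numbers at -0.27 to 0.18. The value of 0.27 was between replicate 2 of AS1411 and replicate 2 of the control oligo at 48 h. The 2 AS1411 libraries at 48 h deviate from their mean by equal and opposite amounts. The -0.27, between AS1411 replicate 1 and the same control library, is therefore the same value with its sign turned. Of the 11 libraries, 6 correlated best with their own number, and how many would do so without pairing was not tested. A shared origin of replicates with the same number was not tested. With the replicate block, 28 fell and 2 rose at 24 h, 32 fell and 4 rose at 48 h, and 1 was higher with time in control oligo cells. Over single genes and settings, 4389 calls kept their side of the threshold, 270 were lost, 84 were gained and 1 reversed. Depth limits Nup210 and Nup210l, with at most 68 counts per library.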
